A study of Mus musculus with 3 samples.

Results

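The genes described here form the PI3K, AKT and mTOR pathway, the route by which insulin-like signals set growth, protein synthesis and survival. They were chosen by name: 35 RefSeq symbols, looked up through the transcript accession of each probe in the 3 cortex arrays. Of the 35, 31 were matched, with 46 of the 41174 gene probes of the array, on which 15724 genes could be named this way. Pik3r1, Pik3r4, Irs2 and Phlpp1 were the 4 without a matched probe. A probe was tested where the authors flagged its spot as reliable, meaning a foreground over 2 times background, on at least 2 of the 3 arrays. That left 35 member probes for 25 genes. The remaining 11 probes included every probe of Igf1, Irs1, Pik3c2a, Pik3cg, Rptor and Tsc1.

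The arrays compared whole cortex of adult mice aged 16 weeks between animals heterozygous for an exon 2 deletion of Gtf2i, written Gtf2i(+/Δex2), and wild-type WT(+/+) animals. Gtf2i encodes the transcription factor TFII-I and lies in the interval deleted in Williams-Beuren syndrome. All animals were of mixed strain, with 98.4% from C57BL/6J and 1.6% from 129Sv/CD1, and the RNA put on an array came from 3 to 5 pooled mice. Mutant and wild-type RNA shared each array in different colours, the mutant carrying Cy5 on replicate 2 and Cy3 elsewhere, and the deposited channel columns are already turned the same way. Whether the replicates used separate pools is not in the labels. The p-values thus cover only array-to-array spread, which may be technical. The labels name no Cre or promoter that would limit the mutation to 1 cell type.

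In this pathway a ligand such as IGF-1 activates a receptor kinase, adaptors of the IRS family recruit class I PI 3-kinase, and its lipid product brings the kinases PDK1 and AKT to the membrane. AKT inhibits the TSC complex, which otherwise holds down the small GTPase Rheb, the activator of mTOR complex 1. That complex, built on raptor, phosphorylates S6 kinases and 4E-BP proteins to raise translation, whereas mTOR complex 2, built on rictor, phosphorylates AKT. In cortical neurons the pathway governs cell size, dendrite growth and synaptic protein synthesis. Most of its control is by phosphorylation, which these arrays do not measure.

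Ratios below set the mutant over the wild type on the log2 scale. That direction is likely, not stated: the titles name the mutant first, and the fold in the readme is that of test against control. The Pro25G control spots turned over with the dyes, at 4.51, -4.54 and 4.58 on replicates 1 to 3. This turnover shows that the arrays were put the same way round, and not which genotype is the numerator. Were the ratios the other way up, every sign, share and rank here would turn with them, and the largest fall would be read as the largest rise. The shares given below would then be 138% for Mtor, 135% for Rictor, 134% for Ddit4, 131% for Akt1s1, 114% for Igf1r, 81.8% for Tsc2 and 88.9% for Foxo3. The probes of Gtf2i read -0.32 ± 0.05 and -0.47 ± 0.04 (SD, n = 3), both past the threshold. The sources used here do not place them relative to exon 2, so what they say about the direction is uncertain. Replicate 1 lay between the other arrays at 48.4% of the 27530 tested probes, replicate 2 at 24.0% and replicate 3 at 27.5%. The labelled tissue was checked on 8 cortical projection neuron markers, all of them measured; 7 of their 9 probes were lower in the mutant and 0 higher by limma (array means of -0.30, -0.29 and -0.36). Astrocyte markers also fell, at 5 of 9 probes against 1 that rose. Oligodendrocyte markers were lower at 4 of 9 probes and higher at 1, and microglial ones at 4 of 7 and 1. Blood markers were lower at 4 of 7 probes (array means of -0.40, -0.45 and -0.04), and choroid plexus markers higher at 3 of 6 (0.20, 0.22 and 0.19). The part of these cell types in the member ratios was not tested. In whole tissue, fewer cells of a type and less RNA per cell cannot be told apart.

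Transcripts of 3 of the 5 tested mTOR complex genes and of 2 of the 4 tested mTORC1 substrate genes were lower in the mutant cortex at 1 or more probes, while the PI 3-kinase genes showed no called change. Mtor itself, Rictor, the mTORC1 inhibitor gene Akt1s1, the mTOR-restraining gene Ddit4, Rps6kb2 and Eif4ebp2 fell by 0.28 to 0.46 on the log2 scale at their called probes. Tsc2, which encodes the GTPase-activating subunit that restrains Rheb, rose by 0.29. In the limma fit, 15 of the 35 tested probes passed an adjusted p of 0.05, 12 lower and 3 higher; without replicate 1 these became 5 lower and 0 higher. Across all tested probes 33.9% passed, 18.9% lower and 15% higher, so the share of called members, 42.9%, lay not far above the background. By a stricter rule, a B statistic above 0, 0 member probes were higher and 5 lower, where 9.67% of all tested probes passed. The sign was the same on all 3 arrays at 25 member probes, or 71.4%, against 65.1% of all. The lower calls made up 34.3% of member probes and the higher calls 8.57%. The median member probe read -0.04, against 0.00 for all tested probes, and 0 of the 35 changed by as much as 1.5-fold, where 2.01% of all tested probes were called at that size.

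**Figure D1:**
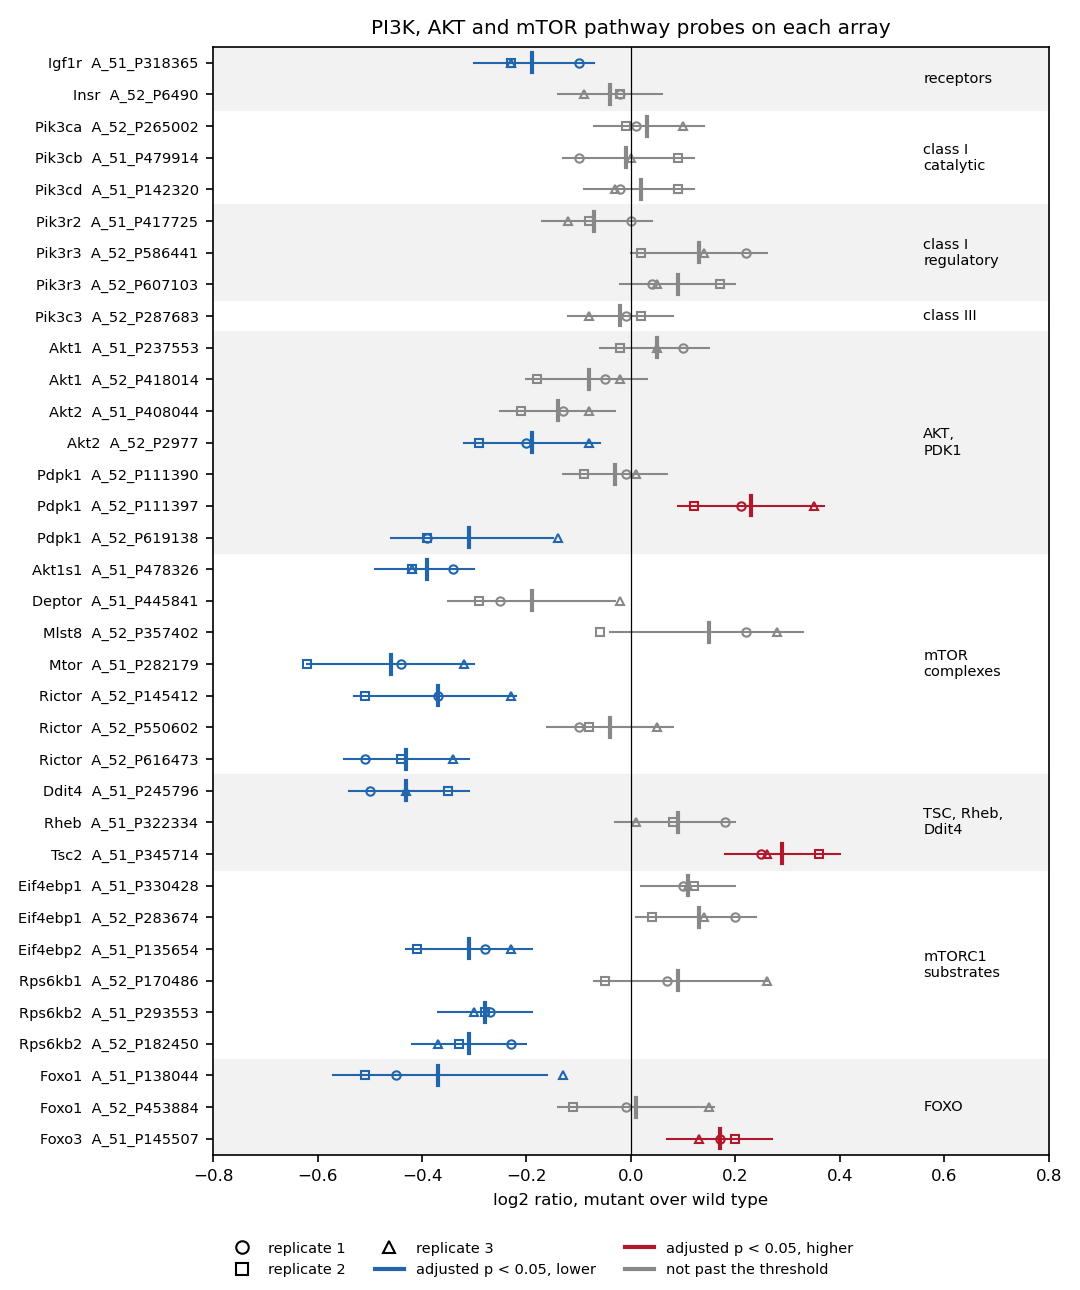
Log2 ratio of mutant over wild type (x axis) for each of the 35 tested member probes (rows, grouped by role). Open symbols are the 3 arrays, the thick tick is their mean and the line its 95% confidence interval from limma; blue probes were lower and red probes higher at an adjusted p under 0.05. The 7 PI 3-kinase probes are all grey and near 0, while Mtor, Ddit4, Akt1s1, both probes of Rps6kb2 and both called probes of Rictor lie to the left of it on every array.

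Counting genes, 9 were lower only, 2 higher only, 1 had calls in both directions and 13 had none. A gene counted as called if 1 or more of its probes passed. The matching share over all named genes was not computed, and the probe shares above are not that share. Calls went with bright probes: the median signal was 425.5 for called member probes and 309.6 for the others, as it was 600.2 and 285.7 over all tested probes. Negative control spots had medians from 72.3 to 81.4 in the 6 channels. The dimmest tested member probes, at 139.1, were thus less than 2 times as bright as the controls, and subtracting the control level made the ratios of dim called probes larger.

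The promoters of the 4 genes shown first below belong to members whose fall kept its call under all 14 alternative settings, and Tsc2 is shown beside them as the member with the largest rise. Rps6kb2 also had such a probe and is named only. Each sequence runs 5′ to 3′ on the gene's strand, from 250 bases before to 50 after the gene start, from RefSeq on GRCm38.p6. Capitals mark an ETS core (CCGGAAG) or a CCAAT box (ATTGG), either strand, which do not overlap here:
Mtor, chr4:148448332-148448631, plus strand: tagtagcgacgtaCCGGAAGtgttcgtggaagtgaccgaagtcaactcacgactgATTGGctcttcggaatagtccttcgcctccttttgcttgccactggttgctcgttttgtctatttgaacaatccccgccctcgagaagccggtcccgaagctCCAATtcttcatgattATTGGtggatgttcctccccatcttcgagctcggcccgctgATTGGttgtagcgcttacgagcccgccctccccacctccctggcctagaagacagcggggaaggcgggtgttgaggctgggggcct
Rictor, chr15:6708131-6708430, plus strand: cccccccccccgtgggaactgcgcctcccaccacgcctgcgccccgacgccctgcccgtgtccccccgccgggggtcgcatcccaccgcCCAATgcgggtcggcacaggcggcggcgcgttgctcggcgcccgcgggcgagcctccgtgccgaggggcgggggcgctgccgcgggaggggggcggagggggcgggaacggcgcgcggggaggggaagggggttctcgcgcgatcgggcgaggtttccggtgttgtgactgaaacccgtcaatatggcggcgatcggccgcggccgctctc
Akt1s1, chr7:44850122-44850421, plus strand: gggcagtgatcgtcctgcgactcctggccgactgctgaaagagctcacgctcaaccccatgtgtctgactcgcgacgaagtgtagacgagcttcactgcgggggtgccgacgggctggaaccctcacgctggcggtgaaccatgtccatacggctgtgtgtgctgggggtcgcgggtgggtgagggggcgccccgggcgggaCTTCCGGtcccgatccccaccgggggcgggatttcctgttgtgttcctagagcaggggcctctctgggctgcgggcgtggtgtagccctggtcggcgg
Ddit4, chr10:59951721-59952020, minus strand: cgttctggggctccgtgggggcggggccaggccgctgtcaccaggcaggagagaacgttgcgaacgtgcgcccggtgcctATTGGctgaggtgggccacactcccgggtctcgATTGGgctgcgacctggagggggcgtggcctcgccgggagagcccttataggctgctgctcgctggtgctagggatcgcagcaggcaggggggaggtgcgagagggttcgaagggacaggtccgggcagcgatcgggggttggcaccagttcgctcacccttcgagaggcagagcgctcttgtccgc
Tsc2, chr17:24632578-24632877, minus strand: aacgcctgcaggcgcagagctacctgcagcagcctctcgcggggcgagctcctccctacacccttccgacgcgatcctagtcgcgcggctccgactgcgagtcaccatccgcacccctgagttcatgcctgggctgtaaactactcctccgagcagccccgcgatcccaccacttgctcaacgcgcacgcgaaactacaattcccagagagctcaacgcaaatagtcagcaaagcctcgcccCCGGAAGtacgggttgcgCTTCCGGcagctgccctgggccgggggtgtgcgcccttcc

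The Mtor promoter held 4 CCAAT boxes and 1 ETS core, Ddit4 held 2 CCAAT boxes and Rictor 1. Akt1s1 held 1 ETS core and Tsc2 held 2. These motifs were picked after the sequences had been read and are descriptions. Among 32851 promoters of the same length in the table, 8.86% held an ETS core and 37.4% a CCAAT box. Of 41 promoters for the 30 members in the table, 6 held an ETS core, or 14.6%, and 14 held a CCAAT box, or 34.1%. The ETS core stood in promoters of Tsc2, which rose, of Mtor, Akt1s1 and Eif4ebp2, which fell, and of Pik3ca and Pik3r2, which were not called. Of motifs chosen without reading the promoters, the E-box CACGTG occurred in 3 member promoters (7.32%, against 7.15% of all) and the forkhead core GTAAACA in 2 (4.88% against 3.65%). The cyclic AMP response element TGACGTCA occurred in 0 (1.79% of all) and the ATF4 and CEBP element TGATGCAA in 1 (2.44% against 0.895%). None of these 4 stood in the promoters printed here.

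At the top of the pathway, the gene for the IGF-1 receptor was the only member called. The Igf1r probe had a mutant signal of 338.9 against 362.7 in wild type on replicate 1, 328.2 against 385.7 on replicate 2 and 297.4 against 348.7 on replicate 3. The mutant was the dimmer channel each time, by least on replicate 1. The mean log2 ratio was -0.19 ± 0.08 (SD, n = 3; 95% confidence interval -0.30 to -0.07; limma adjusted p = 0.0293). The mutant thus had 87.9% of the wild-type level. This call ended without any 1 of the replicates (adjusted p from 0.0529 to 0.091, and from 0.0111 to 0.091 over the 14 alternatives). Its mean ran from -0.25 to -0.11 over those alternatives. The insulin receptor gene Insr read -0.02, -0.02 and -0.09 and did not pass (-0.04 ± 0.04, interval -0.14 to 0.06), from a dim probe with a mean signal of 159.6. Igf1, the gene for the ligand, was reliable on 1 array and was not tested; it read -0.19, -0.10 and 0.00. The adaptor gene Irs1 was reliable on 0 arrays and read 0.21, -0.08 and 0.18.

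No probe for a PI 3-kinase subunit passed the test. Pik3ca and Pik3cb encode the widely expressed catalytic subunits p110alpha and p110beta, and Pik3cd the subunit best known from white blood cells. Pik3ca read 0.01, -0.01 and 0.10 on replicates 1 to 3 (0.03 ± 0.06, SD, n = 3; interval -0.07 to 0.14). Pik3cb read -0.10, 0.09 and 0.00 (interval -0.13 to 0.12), and Pik3cd read -0.02, 0.09 and -0.03 (interval -0.09 to 0.12). At all 3 the sign differed between arrays, and the intervals together reached no lower than -0.13 and no higher than 0.14.

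Member genes for the regulatory subunits, which hold the catalytic subunit at its receptor, were not called either. Pik3r2 read 0.00, -0.08 and -0.12 (interval -0.17 to 0.04). The tested probes of Pik3r3 read 0.13 ± 0.10 and 0.09 ± 0.07 (SD, n = 3), with all 6 array values above 0 and limma adjusted p of 0.112 and 0.172. The class III kinase gene Pik3c3, whose product makes the lipid used in autophagy and endosome traffic, read -0.01, 0.02 and -0.08 (interval -0.12 to 0.08). In the limma fit 0 of these 7 probes for PI 3-kinase subunits reached even an unadjusted p under 0.05. Pik3cg and Pik3c2a had 1 probe each, reliable on 0 arrays.

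Of the AKT kinases, Akt2 was lower and Akt1 was not called. Akt2, the isoform best known for glucose uptake, read -0.20, -0.29 and -0.08 at its called probe (-0.19 ± 0.10, SD, n = 3; limma adjusted p = 0.0406). Its other probe had the same sign on all arrays, at -0.13, -0.21 and -0.08, and missed the threshold (adjusted p = 0.055), though it passed once the negative control level was subtracted (0.0457). Replicate 3 was nearest 0 at both. The call of Akt2 ended in 5 of 14 alternatives, among them loess within each array (adjusted p = 0.054) and leaving out replicate 1 (0.208) or 2 (0.116), with adjusted p from 0.000945 to 0.208 over all of them. The bright Akt1 probe read 0.10, -0.02 and 0.05 (interval -0.06 to 0.15) and the dim one, with a signal of 139.1, read -0.05, -0.18 and -0.02.

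Probes of Pdpk1, the gene for the kinase PDK1 that phosphorylates AKT, disagreed. One probe, A_52_P619138, read -0.39, -0.39 and -0.14, lower on all 3 arrays and least on replicate 3 (-0.31 ± 0.14, SD, n = 3; limma adjusted p = 0.0179). The probe A_52_P111397 read 0.21, 0.12 and 0.35 and was higher on all 3 (0.23 ± 0.12, adjusted p = 0.0276). The remaining one, A_52_P111390, had a mean signal of 7076, read -0.01, -0.09 and 0.01 and did not pass. The lower called probe lay beneath the higher one on each array, with gaps of -0.60, -0.51 and -0.49, so the direction for Pdpk1 depends on the probe. Both calls ended without replicate 1 (adjusted p = 0.115 and 0.133). Both also ended with replicates 1 and 2 averaged as 1 (0.08 and 0.0601), and the lower one without replicate 2 (0.0718). Over the 14 alternatives the adjusted p ran from 0.000237 to 0.115 for the lower probe and from 0.000814 to 0.133 for the higher one. The sources used here do not say which transcripts each probe covers.

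Among the subunits of the mTOR complexes, the kinase gene Mtor had the largest fall. Its signal was 674.7 in the mutant against 913.1 in wild type on replicate 1, 709.7 against 1093 on replicate 2 and 847.4 against 1060 on replicate 3. The mutant values did not overlap the wild-type values, in the same signals that gave the call. How many of all tested probes show no overlap was not counted, here or for the members below. The log2 ratios were -0.44, -0.62 and -0.32, strongest on the dye-swapped array, with a mean of -0.46 ± 0.15 (SD, n = 3; interval -0.62 to -0.30; limma adjusted p = 0.00652). This is 72.6% of the wild-type level. Mtor kept its call in all 14 alternatives, with means from -0.53 to -0.38 and adjusted p from 9.99e-05 to 0.0429.

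Rictor, the defining subunit of mTOR complex 2, was lower at both of its brighter probes. A_52_P616473 had mutant signals of 413.6, 379.9 and 458.6 on replicates 1 to 3 against 588.5, 514.9 and 582.2 in wild type, so the genotypes did not overlap. Its ratios were -0.51, -0.44 and -0.34 (-0.43 ± 0.08, SD, n = 3; limma adjusted p = 0.00382). That put the mutant at 74.2% of wild type. A_52_P145412 read -0.37, -0.51 and -0.23 (-0.37 ± 0.14, adjusted p = 0.0102), and its call ended without replicate 1 (adjusted p = 0.0646, the highest of 14 alternatives that began at 0.000154). The dim probe A_52_P550602, with a signal of 150.1, read -0.10, -0.08 and 0.05 and did not pass, and A_51_P218948 was reliable on 0 arrays. After the negative control level was subtracted the dim probe read -0.10, against -0.52 and -0.55 for the called ones, so it stayed nearer 0 with background removed.

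Akt1s1 encodes PRAS40, an AKT substrate that binds raptor and restrains mTORC1. It read -0.34, -0.42 and -0.42, a narrow spread across the dye exchange (-0.39 ± 0.04, SD, n = 3; limma adjusted p = 0.00346). The mutant level was 76.1% of that in wild type. Mutant signals of 333.2, 341.4 and 347 all lay below the wild-type signals of 422.5, 457.9 and 463.5. The call held in all 14 alternatives, with adjusted p from 8.68e-05 to 0.0305.

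The remaining member subunits did not pass. Outside the members, Mapkap1, the gene for a further subunit of mTOR complex 2, read -0.22, -0.14 and -0.30 and was lower (limma adjusted p = 0.0186). Prr5l, another gene of that complex, read -0.01, 0.01 and 0.39 and did not pass. Deptor, another inhibitor subunit of both complexes, read -0.25, -0.29 and -0.02 (-0.19 ± 0.15, SD, n = 3; limma adjusted p = 0.0728), with replicate 3 apart from the others. Mlst8, the small beta-propeller subunit common to both complexes, read 0.22, -0.06 and 0.28, with the dye-swapped array on the other side of 0 (interval -0.04 to 0.33). Rptor, which encodes raptor, was reliable on 0 arrays and had a signal of 115.5. Of the 7 tested member probes for the complexes, 4 were lower and 0 higher by limma, against 18.9% lower among all probes. An unadjusted p under 0.05 was reached by 5.

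**Figure D2:**
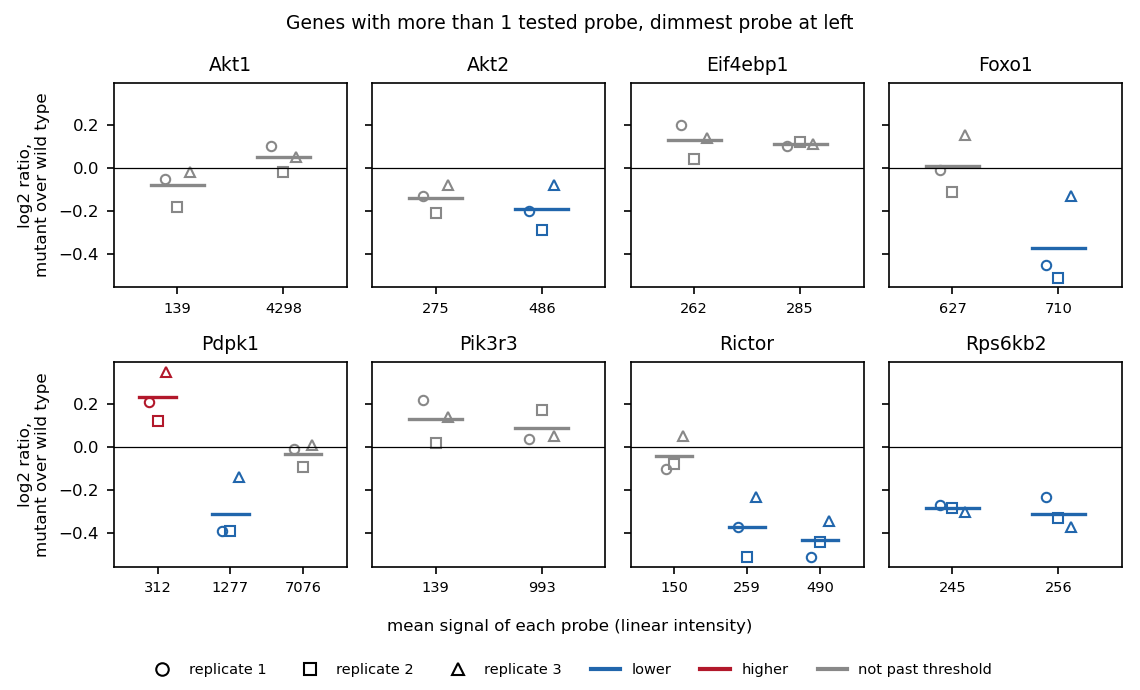
Log2 ratio of mutant over wild type (y axis) for the 8 member genes with more than 1 tested probe; within each panel probes are ordered by mean signal (x labels, linear intensity), symbols are the 3 arrays and the line is their mean. The 2 probes of Rps6kb2 lie together near -0.3, while those of Pdpk1 run from -0.31 to 0.23 and those of Foxo1 from -0.37 to 0.01.

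Upstream of mTORC1, Ddit4 and Tsc2 moved in opposite directions. Ddit4, also called REDD1, is induced by stress and glucocorticoids and restrains mTORC1 through the TSC complex. Its signal was 2180, 2488 and 2825 in the mutant on replicates 1 to 3, against 3081, 3169 and 3801 in wild type. The genotypes did not overlap, and the ratios were -0.50, -0.35 and -0.43 (-0.43 ± 0.07, SD, n = 3; limma adjusted p = 0.00364). As a share of wild type, this is 74.5%. All 14 alternatives kept this call, with adjusted p from 5.45e-05 to 0.0359.

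Tsc2 encodes tuberin, the subunit of the TSC complex that switches Rheb off. Its signal was 4006 against 3364 on replicate 1, 4410 against 3434 on replicate 2 and 3758 against 3143 on replicate 3, and the mutant was the brighter channel each time. The ratios of 0.25, 0.36 and 0.26 gave a mean of 0.29 ± 0.06 (SD, n = 3; interval 0.18 to 0.40; limma adjusted p = 0.00713). The mutant therefore stood at 122% of wild type. The call ended without replicate 1 (adjusted p = 0.0555, with 0.000222 the lowest over the 14 alternatives), though the mean was then 0.31. Rheb, the GTPase itself, read 0.18, 0.08 and 0.01 from a bright probe and did not pass (interval -0.03 to 0.20). Tsc1, which encodes the partner of tuberin, had 2 probes, each reliable on 0 arrays.

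Each pair of mTORC1 substrate genes held 1 called member. Rps6kb2, the gene for S6 kinase 2, fell at both of its probes. They read -0.27, -0.28 and -0.30 (-0.28 ± 0.01, SD, n = 3; limma adjusted p = 0.00539) and -0.23, -0.33 and -0.37 (-0.31 ± 0.07, adjusted p = 0.00693). These probes lay within 0.07 of each other on every array. With the negative control level subtracted they read -0.43 and -0.46, more than 1.5 times as large for the first. Without replicate 1 the first lost its call (adjusted p = 0.0571, over a range from 0.000131), and the second kept it in all 14 alternatives (up to 0.041). Rps6kb1, the gene for S6 kinase 1, read 0.07, -0.05 and 0.26 from a dim probe (signal 158.8, interval -0.07 to 0.26), and its other probe was reliable on 0 arrays.

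Eif4ebp2 encodes 4E-BP2, the main brain form of the repressor that binds the cap-binding protein eIF4E. Its signal was 414.1 against 502.1 on replicate 1, 360.3 against 479.6 on replicate 2 and 366.3 against 430.7 on replicate 3. The mutant values all lay below the wild-type ones, and the ratios of -0.28, -0.41 and -0.23 had a mean of -0.31 ± 0.09 (SD, n = 3; limma adjusted p = 0.00901). Without replicate 1 the adjusted p was 0.0612, the highest of 14 alternatives that began at 0.000217. Eif4ebp1, which encodes 4E-BP1, had 6 of 6 array values above 0 at its 2 probes. Their means were 0.11 ± 0.01 and 0.13 ± 0.08 (SD, n = 3), and they did not pass (limma adjusted p = 0.0693 and 0.0836).

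The FOXO factors, which AKT keeps out of the nucleus, were called in different directions. Foxo3 read 0.17, 0.20 and 0.13, higher on all 3 arrays (0.17 ± 0.03, SD, n = 3; limma adjusted p = 0.0238). In linear terms the mutant had 112% of the wild-type signal. That call ended without replicate 1 (adjusted p = 0.179) or 2 (0.0658) and with both averaged as 1 (0.0905), over a range from 0.000763 to 0.179. Foxo1 had a probe at -0.45, -0.51 and -0.13, lower on all 3 (-0.37 ± 0.20, limma adjusted p = 0.0228), and another of similar brightness at -0.01, -0.11 and 0.15 that did not pass. The gap between these probes was 0.44, 0.40 and 0.28 on replicates 1 to 3. The lower probe lost its call without replicate 1 (adjusted p = 0.119) or 2 (0.086) and with both averaged (0.095), over a range from 0.000274 to 0.119.

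Of the 12 lower member probes, 7 were nearest 0 on replicate 3, among them Foxo1, Akt2 and the lower probe of Pdpk1, and 7 were farthest from 0 on replicate 2. On replicate 3 the 11 tested probes of thalamic markers averaged 0.70, against -0.04 and -0.07 on replicates 1 and 2. These probes cover 5 of 7 listed genes, without Lef1 and Gbx2, and 1 probe was called, higher. They were uneven on replicate 3, where Tcf7l2 read 1.76 at one probe and 0.02 at the other. Calb2 read 0.04, 0.31 and 0.02 there, and Zic1 1.43 and 1.36. The summed signal of the thalamic probes was 9601, 10635 and 8576 in the mutant and 8954, 9485 and 3990 in wild type. Vessel markers also read highest on replicate 3 (array means of 0.02, -0.08 and 0.36). Striatal markers (-0.22, -0.31 and 0.14) and interneuron markers (-0.24, -0.08 and 0.08) did as well. Hippocampal markers did not (-0.02, -0.06 and -0.04). The part of tissue outside cortex in the member ratios was not tested. Without replicate 3 there were 3 member probes called higher and 13 lower. Without replicate 1 there were 0 higher and 5 lower. In the limma fit with a term for the dye, 0 of 35 member probes passed the test of that term. Their lowest adjusted p in that fit was 0.559, and 2 had an unadjusted p under 0.05. Among all 27530 tested probes 0 passed as well, and 2409 had an unadjusted p under 0.05. A test that 0 probes passed cannot show the members to be free of a dye effect.

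**Figure D3:**
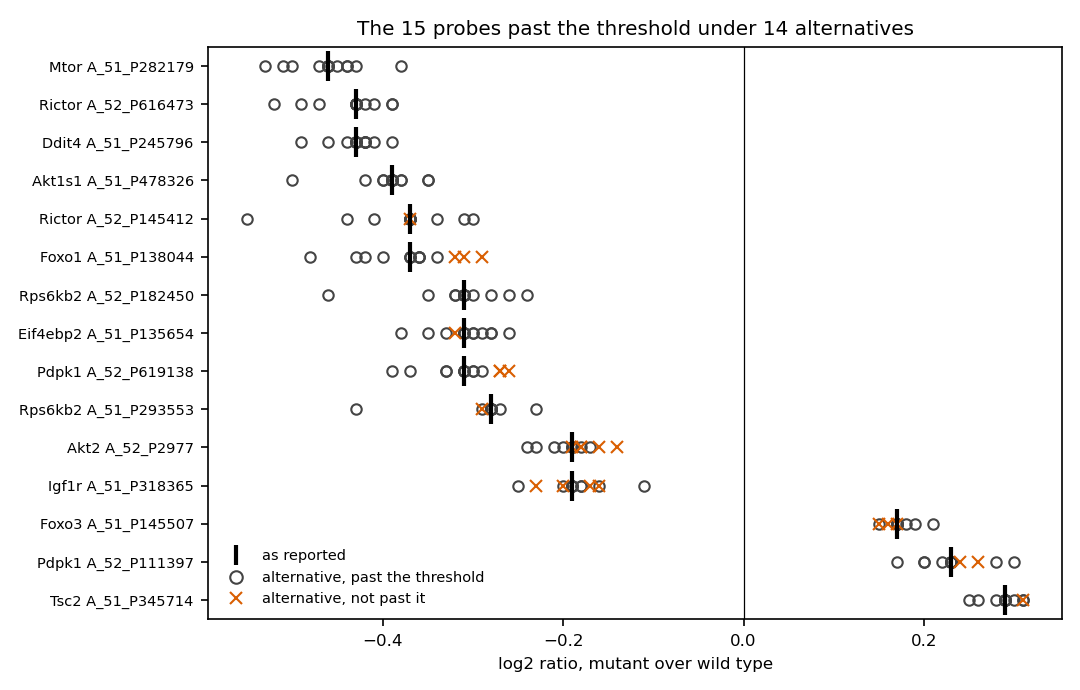
Mean log2 ratio of mutant over wild type (x axis) for the 15 called member probes (rows) as reported and under 14 alternative settings; crosses mark settings in which the adjusted p was 0.05 or above. No probe changed sign, and Mtor, Ddit4, Akt1s1 and 1 probe each of Rictor and Rps6kb2 show no cross.

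Other genes of the pathway were taken from a list of 124, of which 112 had a matched probe and 98 a tested one. Of their 134 probes 44 were lower and 18 higher by limma, 46.3% in all, beside 33.9% of all tested probes called, 18.9% lower and 15% higher. Without replicate 1 these counts became 11 and 5. The median was -0.04, as it was for the 35 member probes. Counting genes, 33 were lower only, 14 higher only, 2 had calls in both directions and 49 had none. Here too the matching share over all named genes was not computed.

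Among the lowest were Rragd, a Rag GTPase that brings mTORC1 to the lysosome, and Gsk3b, a kinase that AKT inhibits. Rragd read -0.86, -0.94 and -0.46 at one probe and -0.54, -0.53 and -0.13 at the other. Gsk3b read -0.87, -0.88 and -0.45 at one and -0.40, -0.57 and -0.22 at the other, and all 4 of these probes passed. Each stood nearest 0 on replicate 3. Eef2, the elongation factor restrained by a kinase under mTORC1, had called probes at -0.60 and -0.45 and a dimmer one at 0.03 that did not pass.

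The highest was Inpp5f, which encodes a phosphoinositide phosphatase, with a probe at 1.02, 0.95 and 0.98 and another at 0.23, 0.26 and 0.23. Both passed, and they differed in size on every array. Shc3, a neuronal adaptor gene, read 0.41 ± 0.12 and Sgk2, a kinase gene related to AKT, 0.34 ± 0.08 (SD, n = 3; limma adjusted p = 0.00608 and 0.00572). Ppp2cb, the gene for a catalytic subunit of the phosphatase PP2A, rose at both probes, by 0.37 and 0.29.

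Sorted by role after their values were seen, these genes showed the following counts. Of 10 probes for LKB1 and AMPK, the energy-sensing kinases that restrain mTORC1, 5 were lower and 0 higher, with a median of -0.18. Of 15 probes for translation factors under mTORC1 6 were lower and 1 higher, with a median of -0.09. The 25 probes for lysosomal amino acid sensing gave 5 lower and 4 higher, with a median of 0.01 and a range from -0.75 to 0.32. The 18 probes for insulin family ligands, adaptors and binding proteins gave 8 lower and 4 higher.

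**Figure D4:**
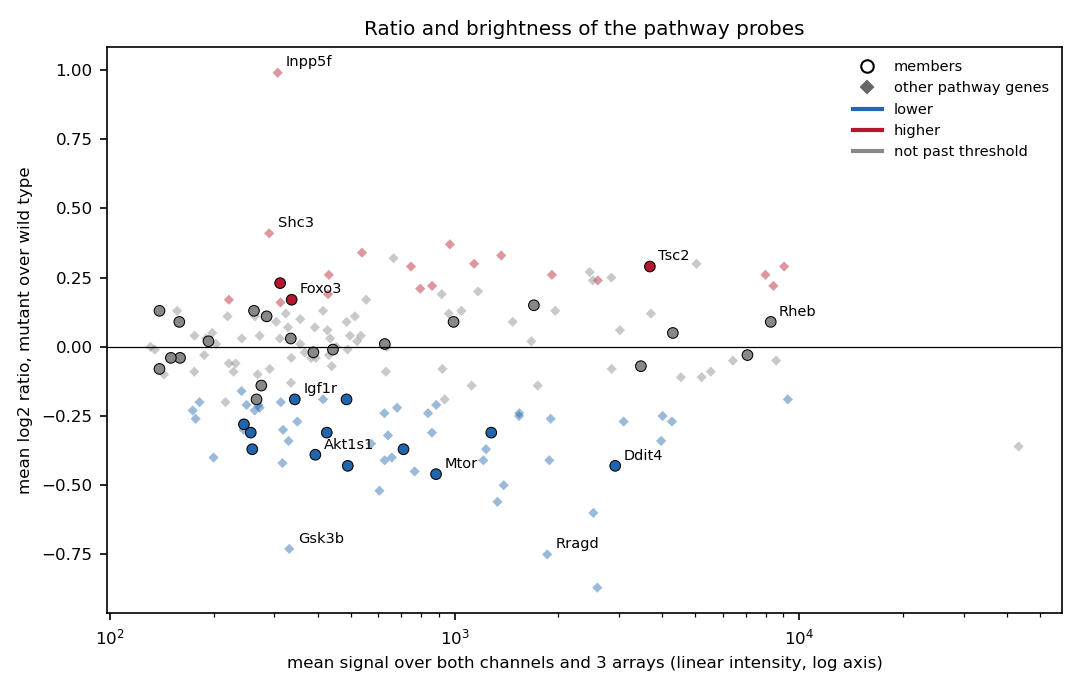
Mean log2 ratio of mutant over wild type (y axis) against mean signal over both channels and 3 arrays (x axis, linear intensity on a log scale) for the 35 member probes (outlined circles) and 134 probes of other pathway genes (diamonds). Blue and red mark probes past the threshold; the member probes lie between -0.46 and 0.29, nearer 0 than Rragd at -0.75 and Inpp5f at 0.99.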

How the data were processed

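Total RNA from cortex was extracted with Trizol, and 500 ng was amplified, labelled and hybridised to Agilent 60-mer arrays, per the labels' protocols. The authors deposited linear intensities per spot and channel, background-subtracted, normalized and corrected for the dye exchange, per the deposited readme, which names GenePix and gives no normalization method. They also deposited a log2 ratio with repeated spots collapsed, and a score per spot, a signed fold, per the file headers. The values table of the series held the same score at 100% of spots. No genome build is given in the sources used here, and 0 columns of sample values were left unused.

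From these, log2 ratios of the deposited channels were taken as they stood, repeated spots of 1 probe were averaged and probes of 1 gene were kept apart. Probes were named by accession, without versions, through RefSeq genes on GRCm38.p6, which named 21445 of 41174 (52.1%). Each mean ratio over the 3 arrays was tested against 0 with limma 3.58.1 (lmFit, eBayes) in R 4.3.3, with Benjamini-Hochberg adjustment over all 27530 tested probes and a threshold of 0.05. The fit was tested on simulated data. The number of arrays limits the precision. Alternatives were 14 refits and 2 stricter call rules. Figures used Python 3.11.15, pandas 2.3.3 and matplotlib 3.10.9.

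The members and lists were chosen with earlier results of these data known. Every member is described by role; of the other pathway genes, those with the 4 highest and 4 lowest called probes, and Gsk3b, are named, except what is not reported here.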

Additional observations from a re-analysis of the deposited data

How the results depend on the processing

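All 15 called member probes kept their sign in 14 refits, and 5 of them kept their call in all 14; 24 of 210 refits lost a call. The test is itself paired by array, since each ratio sets both genotypes on 1 array, and no further block could be fitted. Leaving out 1 replicate gave 0 to 3 member probes called higher and 5 to 13 lower, 5 to 21 and 11 to 49 probes of other pathway genes, and 2409 to 9885 tested probes, in each case fewest without replicate 1. With replicates 1 and 2 averaged, 1 member probe was higher, 29 other pathway probes were lower and 5120 tested probes were called. Array weights, which gave replicate 1 a weight of 5.84 and the others 0.373 and 0.459, called 9 member probes higher, 41 other pathway probes higher and 18617 probes in all. A B statistic above 0 called 0 member probes higher and 5 lower, 7 and 12 other pathway probes, and 2661 in all. A change of at least 1.5-fold as well left 0 member probes higher and 0 lower, 1 and 4 other pathway probes, and 552 in all. The cause was not tested where a refit changed a count. Loess, median centring, the dye term, the trend, the deposited ratio, the pseudocount of 50, negative control subtraction and the filter requiring all 3 arrays kept each of these counts within 1.5 times. Signals near the negative controls limit what can be seen for 11 member probes that were not tested.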
